A study of Mus musculus with 2 samples.

Results

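The genes described are predicted or known targets of the let-7 and miR-202-3p seeds, a list of 33 mouse genes chosen by symbol. Of these, 32 were rows of the deposited count table of 20476 genes, and Myc was not analysed here. The members were grouped by role into 7 RNA-binding proteins, 10 chromatin and transcription factors with Myc among them, 10 receptors and signalling proteins, and 6 genes of the cell cycle, replication and nucleotides. Total testicular cells of adult mice of the strain labelled C57BL/CJ;ICR were profiled by droplet-based 3′ single-cell RNA sequencing, with 1 library labelled WT and 1 labelled miR-202-/-, and debris was sorted out before loading. The labels name no further allele, agent or number of mice. The deposited table joins both libraries, and each barcode name ends in 1 or 2, here called mark 1 and mark 2. The labels and the table do not say which genotype either mark stands for. No value is therefore given to WT or miR-202-/-, the genotypes were not compared, and nothing was tested. The 2 marks do not serve as replicates.

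MicroRNAs guide Argonaute proteins to messenger RNAs through the seed near their 5′ end, and pairing mostly in the 3′ untranslated region (UTR) lowers translation and shortens the life of the transcript. The let-7 family is known for its pairing with genes of proliferation and of early development, among them Lin28a and Lin28b, whose proteins in turn block the maturation of let-7 precursors. The arm miR-202-3p carries a close relative of the let-7 seed, and miR-202 is known as a microRNA of the gonads. In the testis, spermatogonia renew or differentiate, enter meiosis as spermatocytes, and leave it as round spermatids that elongate into sperm.

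The seeds are shown first because the gene list rests on them, with bases 2 to 8 in capitals. Sequences are from RefSeq on GRCm38.p6. All of the 11 mature let-7 type microRNAs with the first seed share it with let-7a-5p, and let-7j shares that of miR-202-3p. The other arm, miR-202-5p, has an unrelated seed.
let-7a-5p: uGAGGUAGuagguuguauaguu
miR-202-3p: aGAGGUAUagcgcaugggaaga
let-7j: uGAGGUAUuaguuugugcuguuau
miR-202-5p: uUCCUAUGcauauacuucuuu

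The seed matches searched on the transcript strand of the longest annotated 3′ UTR (GENCODE M21, GRCm38) were CTACCTC for let-7, ATACCTC for miR-202-3p and CATAGGA for miR-202-5p. The first 2 overlap in TACCTC, which pairs with bases 2 to 7 of either seed. Of the 32 members 25 (78.1%) held the let-7 match, against 10.9% of 15834 genes with an annotated 3′ UTR, and 9 (28.1%) held the miR-202-3p match, against 6.52%. The members' 3′ UTRs were longer, with a median of 2918 bases against 1189. Among genes with 3′ UTRs of like length the let-7 match was found in 19.2% on average over the members. Per kb the members held 0.459 let-7 matches and all genes 0.0753. TACCTC was found in all 32 members and in 26.8% of genes. The list was chosen for such targets, so these shares describe it and support nothing. A match is a string of letters and was not tested as a site.

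The following windows show 1 match each for 8 of the members described below, and 1 of each kind for Trim71, chosen as examples, with the match and a directly following A in capitals and the position of the 7 matched bases on GRCm38. Trim71 held 4 let-7 matches and 1 miR-202-3p match. Rbfox2, Mycn, Acvr2a, Ccnd1 and Ccnd2 held the miR-202-3p match without the let-7 match. Hras and Cdk6 held neither. Nr6a1 held 8 let-7 matches, the most of any member.
Trim71, let-7, chr9:114512473-114512479, reverse strand: tgcctaagtcCTACCTCAgcttaaattt
Trim71, miR-202-3p, chr9:114508271-114508277, reverse strand: ccatgaagaaATACCTCAataatgtcta
Lin28a, let-7, chr4:134005190-134005196, reverse strand: gcctgttgaaCTACCTCAtttttgccga
Lin28b, let-7, chr10:45381023-45381029, reverse strand: ggcgggaagtCTACCTCAtgcaagcaca
Igf1r, let-7, chr7:68229125-68229131, forward strand: aaacatttatCTACCTCActcttgtttt
Ccnd1, miR-202-3p, chr7:144930599-144930605, reverse strand: cctgttcacaATACCTCAtgtatcatct
Ccnd2, miR-202-3p, chr6:127128223-127128229, reverse strand: cgttttcctaATACCTCAcagctatacc
Mycn, miR-202-3p, chr12:12936500-12936506, reverse strand: tactgtaagaATACCTCAatgtttgagg
Arid3a, let-7, chr10:79953910-79953916, forward strand: aagtttctttCTACCTCAggtcttttga
Cdc34, let-7, chr10:79688127-79688133, forward strand: aggcgacagaCTACCTCAccgaggttcc

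Both marks share 73 barcode sequences. The table held 12935 barcodes under mark 1 and 15310 under mark 2, at medians of 6061 and 5509 unique molecular identifiers (UMIs). Marker gates, none of whose markers is a member, took 7675 barcodes, and barcodes that passed more than 1 gate were left out. The germ gates held, under marks 1 and 2, 18 and 29 undifferentiated spermatogonia, 81 and 62 differentiating spermatogonia, 116 and 76 leptotene-zygotene, 179 and 211 pachytene and 277 and 249 diplotene-dividing spermatocytes, 923 and 1003 round spermatids and 1532 and 1976 elongating spermatids. A further 10935 barcodes (38.7% of all) with fewer than 5000 UMIs passed no gate and served as the reference for free RNA. That they stand for free RNA was assumed. Their median was 4187 UMIs, and whether they hold cells was not tested. Taken from the UMIs of Prm1, Prm2, Tnp1 and Tnp2, the upper estimate of free RNA was 31.8% and 27.4% of the total in undifferentiated spermatogonia, 37.5% and 53.7% in differentiating spermatogonia, 44.2% and 47.8% in leptotene-zygotene spermatocytes, and 13.6% to 28.4% in later spermatocytes and round spermatids. The median barcode of the undifferentiated gate held 5.97 UMIs of its own markers per 10000, against 0 in low-UMI barcodes, that of the differentiating gate 10.89 against 0, and that of the leptotene-zygotene gate 54.35 against 6.66. Neighbouring lists were also present. The undifferentiated gate held 4.19 of the differentiating list, and the differentiating gate 18.78 of the leptotene-zygotene list. The pachytene gate held 25.77 of the leptotene-zygotene list beside 37.68 of its own. Levels are in CPM, the UMIs of a gene per 1000000 UMIs of a gate, and brackets give exact 95% intervals that cover counting error only.

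Of the members, 17 reached 50 CPM in at least 1 gate under each mark. The highest level lay in the undifferentiated gate for 8 of the 32 and in the differentiating gate for 10, beside 10% and 12.3% of 19419 genes with at least 20 UMIs over the gates. Some of these rest on few UMIs, such as Igf2bp2 and E2f2. Of the 26 members with at least 10 UMIs under each mark in their highest gate, 6 and 8 were highest there, beside 6.24% and 14.3% of all such genes. The leptotene-zygotene, pachytene and round spermatid gates held the highest level of 3 members each, the elongating spermatid gate of 2 and the diplotene-dividing gate of 1. For Insr and Irs2 the highest level was in the stromal gate, at no more than 18.5 CPM.

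**Figure D1:**
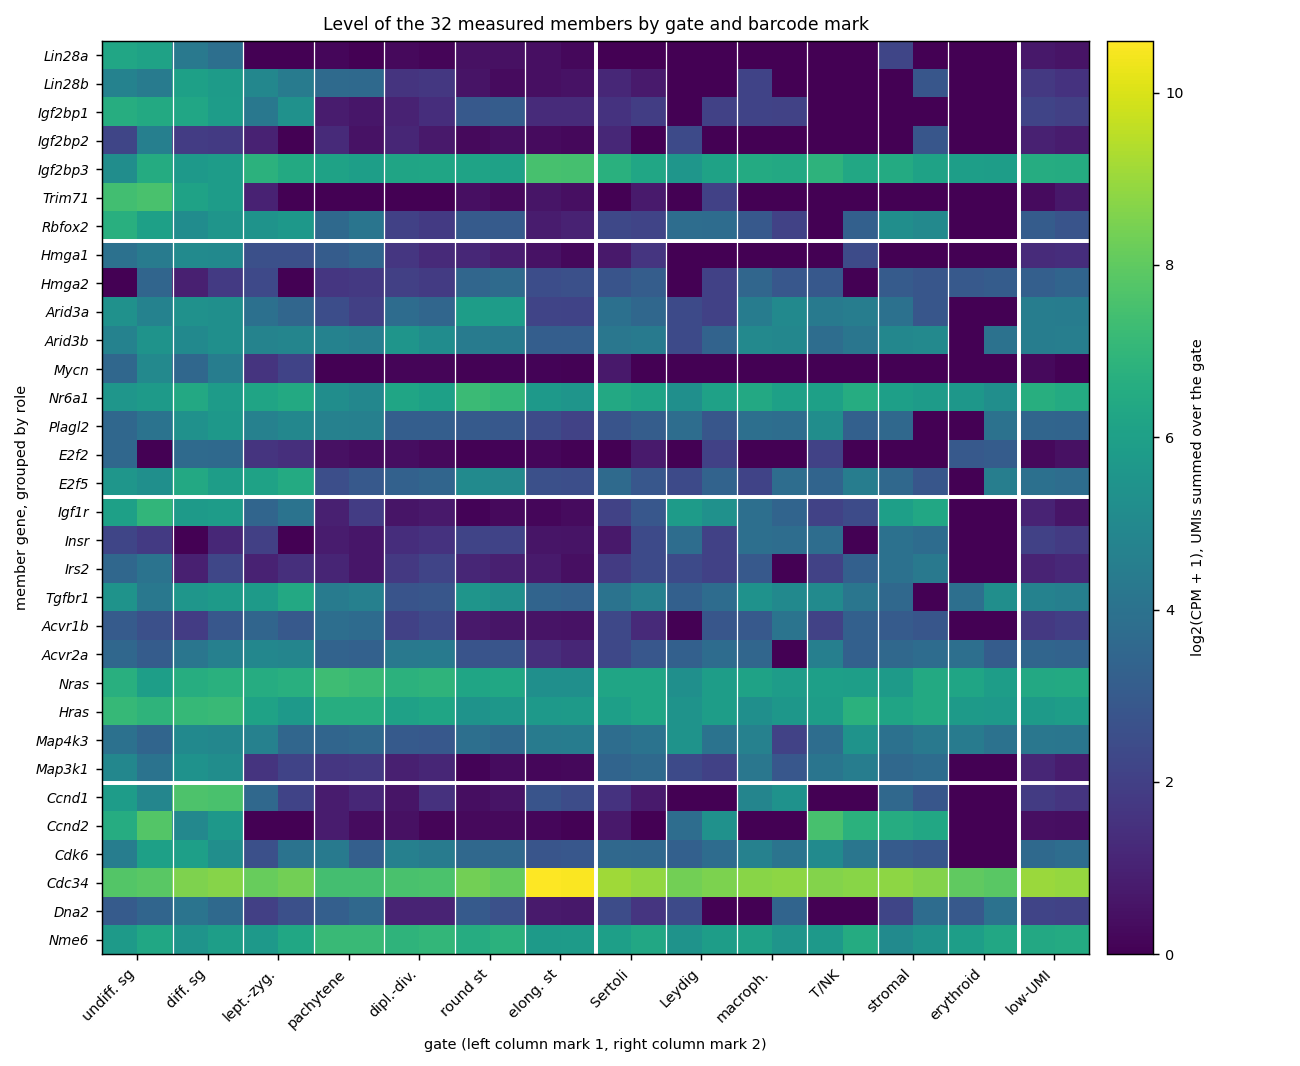
Levels of the 32 members (rows, grouped by role) in 13 gates and in ungated barcodes of low UMI count (column pairs, mark 1 left and mark 2 right), as log2(CPM + 1) of summed UMIs. Trim71, Lin28a, Ccnd2 and Igf1r are bright in the spermatogonial columns, and Cdc34 is brightest in elongating spermatids at 1554 and 1476 CPM.

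A gene was called between neighbouring germ gates if mark 1 and mark 2 each gave a CPM ratio of 2-fold or more and the direction was shared, with at least 10 UMIs under each mark where it was higher and 20 UMIs over both gates. From undifferentiated to differentiating spermatogonia, 4 of 27 measured members were higher (Lin28b, Plagl2, Map4k3 and Ccnd1) and 3 lower (Lin28a, Trim71 and Ccnd2), where 3.06% of all measured genes were called higher and 1.31% lower. From differentiating spermatogonia to leptotene-zygotene spermatocytes, 0 of 28 were higher and 12 lower, with 4.37% and 11.8% of all genes. The lower ones were Lin28a, Lin28b, Trim71, Hmga1, Arid3a, Mycn, Igf1r, Hras, Map3k1, Ccnd1, Ccnd2 and Cdk6. With gate cuts raised to 1.5 times 5 of these calls were lost (Lin28a, Lin28b, Arid3a, Mycn and Hras), and 6 held under all settings tried other than a 3-fold threshold. The median log2 ratio over the measured members was -1.20 at this step and 0.07 over all genes.

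At the later steps the members' calls were closer to the background. From leptotene-zygotene to pachytene, 1 of 24 was higher (Dna2) and 6 lower (Igf2bp1, Rbfox2, Nr6a1, E2f5, Tgfbr1 and Acvr2a), beside 8.54% and 17.1% of all genes. From pachytene to diplotene-dividing spermatocytes, 4 of 27 were higher (Arid3a, Nr6a1, Insr and Irs2) and 8 lower, beside 16.8% and 22.3%. From there to round spermatids, 8 of 27 were higher (Igf2bp1, Rbfox2, Hmga2, Arid3a, Nr6a1, E2f5, Tgfbr1 and Dna2) and 3 lower (Lin28b, Acvr1b and Acvr2a), beside 24.7% and 21.2%. From round to elongating spermatids, 3 of 29 were higher (Igf2bp3, Ccnd1 and Cdc34) and 12 lower, beside 8.38% and 46.8%. Over all 6 steps, 28 members were called at least once, 12 of them in both directions, and 4 never. Of 18159 genes measured in at least 1 step, 84.2% were called at least once, 33.8% in both directions and 15.8% never, so these counts were near the background.

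**Figure D2:**
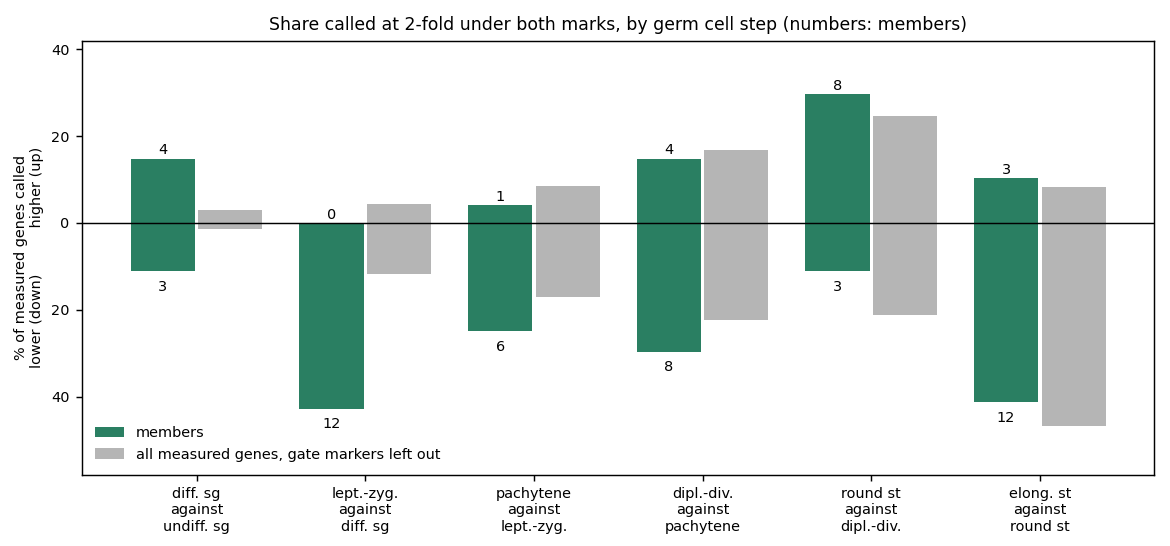
Share of measured genes called higher (up) or lower (down) at 2-fold under both marks at each germ cell step, in percent, for the members (green, with their number) and for all measured genes without the gate markers (grey). At the step into leptotene-zygotene 12 of 28 members were lower and 0 higher; at the last step the split of 3 higher and 12 lower becomes 6 and 6 when scaled by the median ratio.

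CPM is a share of a gate's total, so a few very abundant transcripts lower all others. Among genes that reached 50 UMIs in each gate of a step, the median log2 ratio was -0.07 and -0.05 (marks 1 and 2) at the first step, 0.21 and 0.22 at the second, -0.27 and -0.20 at the third, -0.13 and -0.17 at the fourth, -0.54 and -0.48 at the fifth and -1.11 and -1.15 at the last. Relative to these medians the members split into 4 higher and 3 lower, 0 and 12, 2 and 5, 5 and 7, 11 and 3, and 6 and 6. The shares of all genes were 3.64% and 1.13%, 2.79% and 14.6%, 12.4% and 14.3%, 19.2% and 19.9%, 31.5% and 12.4%, and 18.5% and 17.6%. The 12 members called lower at the step into leptotene-zygotene were therefore called with either scaling. For elongating spermatids the direction of the list depends on it.

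Among the RNA-binding proteins, Trim71, Lin28a, Lin28b and Igf2bp1 marked the spermatogonia, and Igf2bp3 the elongating spermatids. Trim71, a ubiquitin ligase and RNA-binding protein of stem cells, stood at 169 (124 to 225) and 185 (145 to 233) CPM in undifferentiated spermatogonia under marks 1 and 2. In differentiating spermatogonia it stood at 67.4 and 56.6 CPM, 2.51-fold (1.71 to 3.66) and 3.27-fold (2.23 to 4.85) lower. Leptotene-zygotene spermatocytes held 1 and 0 UMIs, which is 67.3-fold lower under mark 1 (11.7 to 2692) and at least 11.1-fold lower under mark 2 against a floor of 3 counts. Pachytene and diplotene-dividing spermatocytes held 0 UMIs under either mark, and every other gate was at or under 3.11 CPM. Trim71 was thus high in both spermatogonial gates and nearly absent elsewhere, with no overlap between those gates and the rest.

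Lin28a, which blocks the maturation of let-7, followed the same order. Undifferentiated spermatogonia held 75.6 (46.8 to 115) and 68.4 (45.1 to 99.6) CPM of it and differentiating ones 18.6 and 13.8 CPM, 4.06-fold (2.11 to 7.81) and 4.95-fold (2.38 to 11.1) lower. In leptotene-zygotene spermatocytes it had 0 UMIs under both marks, at least 6.20-fold and 2.72-fold lower. Its paralogue Lin28b was instead highest in differentiating spermatogonia, at 63.9 and 55.3 CPM against 25.2 and 20.3 CPM in undifferentiated ones, 2.54-fold (1.17 to 6.53) and 2.73-fold (1.27 to 6.71) higher. Lin28b was also measured later, at 29.1 and 20.4 CPM in leptotene-zygotene, 11.6 and 11.5 CPM in pachytene and 1.99 and 2.27 CPM in diplotene-dividing spermatocytes. The paralogues thus went in opposite directions between the spermatogonial gates. The call of Lin28b into leptotene-zygotene was lost under 5 of the other settings besides a 3-fold threshold, and that of Lin28a, with few UMIs, under 2.

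The 3 Igf2bp genes, which encode binding proteins that stabilise messenger RNAs, differed from each other. Igf2bp1 stood at 97.2 and 86.2 CPM in undifferentiated and 75.4 and 57.9 CPM in differentiating spermatogonia, then at 18.04 and 40.7 CPM in leptotene-zygotene and 0.770 and 0.573 CPM in pachytene spermatocytes, where it was 23.4-fold (8.91 to 72.1) and 71.1-fold (24.4 to 282) lower. It returned at a low level in round spermatids, at 6.72 and 7.40 CPM against 0.995 and 1.62 CPM before, and was at 1.47 and 1.46 CPM in elongating ones. Igf2bp2 had at most 9 UMIs in any spermatogonial or leptotene-zygotene gate under either mark. Igf2bp3 was measured in every gate, from 36.0 to 113 CPM outside elongating spermatids, where it stood at 183 (178 to 188) and 178 (173 to 183) CPM. That is 2.63-fold (2.49 to 2.78) and 2.71-fold (2.57 to 2.86) above round spermatids, and under 2-fold above the low-UMI barcodes at 94.6 and 89.8 CPM. Igf2bp3 therefore stands out in elongating spermatids on a background that is present in all gates.

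Rbfox2, a splicing regulator, stood at 101 and 63.4 CPM in undifferentiated spermatogonia, 34.6 and 45.3 CPM in differentiating ones, 43.1 and 49.2 CPM in leptotene-zygotene and 11.2 and 16.2 CPM in pachytene spermatocytes. It was lowest of all germ gates in elongating spermatids, at 0.751 and 1.03 CPM, 9.61-fold (6.11 to 15.9) and 7.17-fold (4.95 to 10.7) below round ones. Stromal cells held 36.4 and 30.9 CPM on 10 and 5 UMIs.

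**Figure D3:**
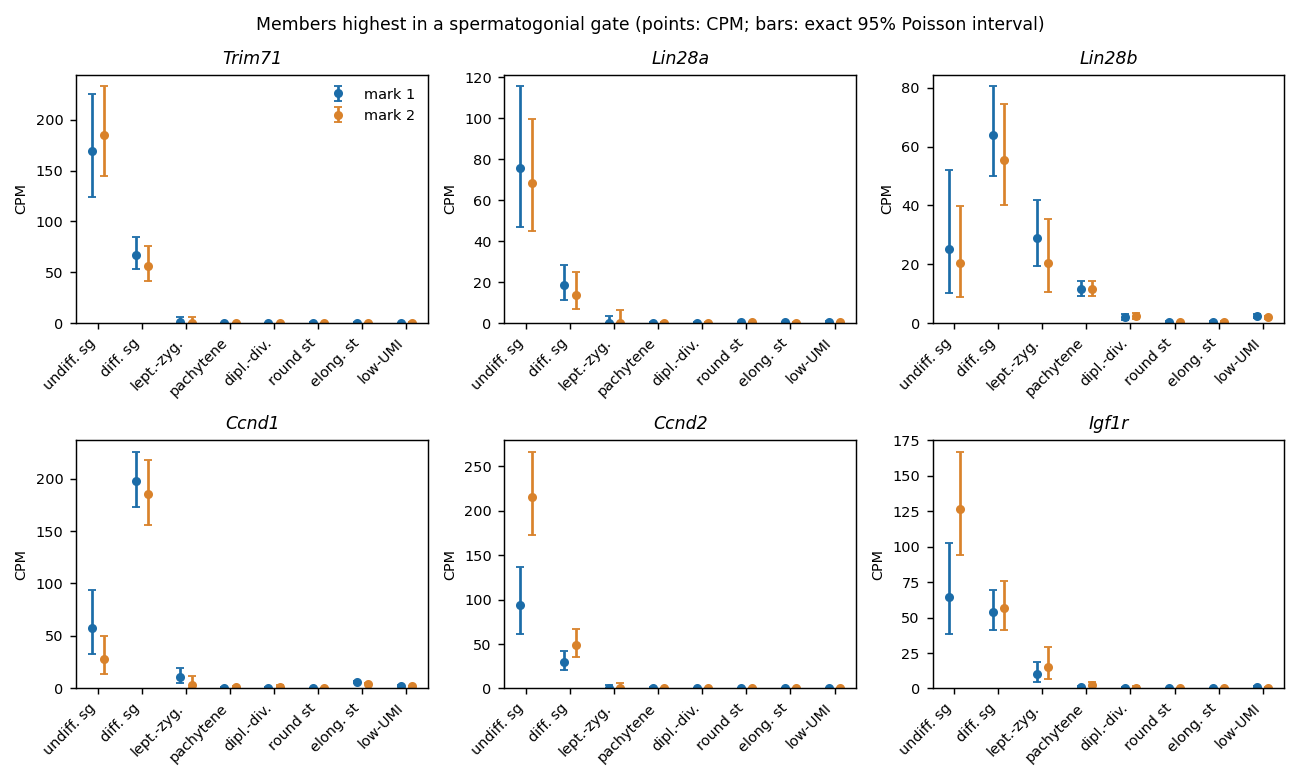
CPM of Trim71, Lin28a, Lin28b, Ccnd1, Ccnd2 and Igf1r in the 7 germ gates and in low-UMI barcodes, under mark 1 (blue) and mark 2 (orange), with exact 95% Poisson intervals. Trim71, Lin28a and Ccnd2 are highest in undifferentiated spermatogonia, Lin28b and Ccnd1 in differentiating ones, and all 6 are at or under 11.6 CPM in these germ gates from pachytene on.

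Of the transcription factors, Nr6a1, Arid3a and E2f5 carried the largest levels. Nr6a1, the germ cell nuclear factor, a repressor known from round spermatids, was highest in that gate, at 149 (144 to 153) and 130 (126 to 134) CPM. It stood at 46.8 and 53.2 CPM in undifferentiated and 83.4 and 55.3 CPM in differentiating spermatogonia, 71.2 and 86.5 CPM in leptotene-zygotene, 35.6 and 28.6 CPM in pachytene and 73.8 and 63.5 CPM in diplotene-dividing spermatocytes. In elongating spermatids it was at 51.8 and 45.7 CPM, 2.87-fold (2.70 to 3.05) and 2.84-fold (2.67 to 3.02) lower. The low-UMI barcodes held 100.3 and 89.1 CPM, so that the round spermatid level was under 2-fold above the free RNA reference. Relative to the median gene of the last step its log2 ratio was -0.38, which was not called.

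Arid3a, a DNA-binding protein of the ARID family, stood at 39.6 and 25.4 CPM in undifferentiated and 39.9 and 37.7 CPM in differentiating spermatogonia, and at 4.62 and 3.01 CPM in pachytene spermatocytes. Round spermatids held 59.4 (56.5 to 62.5) and 57.7 (55.0 to 60.6) CPM, 4.78-fold (3.98 to 5.78) and 5.63-fold (4.57 to 7.0) above diplotene-dividing spermatocytes. In elongating spermatids it was at 3.54 and 3.33 CPM, 16.8-fold (13.7 to 20.8) and 17.3-fold (14.2 to 21.3) lower, and this call was kept with scaling by the median ratio, at a log2 ratio of -2.96. The low-UMI barcodes held 21.4 and 20.8 CPM, and round spermatids alone were 2-fold or more above them under both marks. The paralogue Arid3b lay between 19.9 and 45.2 CPM in every germ gate before the elongating spermatid.

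E2f5, an E2F factor that binds cell cycle promoters, was highest before pachytene, at 82.5 and 59.1 CPM in differentiating spermatogonia and 67.2 and 88.2 CPM in leptotene-zygotene spermatocytes. It stood at 4.88 and 6.87 CPM in pachytene spermatocytes, 13.8-fold (9.11 to 21.1) and 12.8-fold (8.50 to 19.4) lower, and at 32.5 and 31.0 CPM in round spermatids. E2f2, of the same family, had 13 and 9 UMIs in differentiating spermatogonia, 11.5 and 11.3 CPM, and at most 4 in any other gate under either mark. Both E2F genes were thus found in differentiating spermatogonia, and E2f5 alone was measured at a level above 11.5 CPM later.

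The remaining factors were low. Hmga1, a chromatin protein that bends DNA, stood at 32.8 and 31.4 CPM in differentiating spermatogonia and was 6.55-fold (2.57 to 21.4) and 6.18-fold (1.89 to 31.98) lower in leptotene-zygotene spermatocytes. Its relative Hmga2 was at 10.3 and 11.6 CPM in round spermatids, beside 8.30 and 9.70 CPM in low-UMI barcodes, and had 0 and 4 UMIs in undifferentiated spermatogonia. Mycn, a MYC family factor, stood at 10.8 and 30.4 CPM in undifferentiated and 10.6 and 21.4 CPM in differentiating spermatogonia and was at 0 UMIs in pachytene spermatocytes under both marks. Plagl2, a zinc finger factor, was highest in differentiating spermatogonia, at 39.9 and 49.1 CPM. Of the 32 members 17 overlap an annotated gene on the other strand (Lin28a, Igf2bp1, Igf2bp3, Trim71, Rbfox2, Hmga1, Hmga2, Arid3b, Nr6a1, E2f5, Insr, Irs2, Acvr2a, Map4k3, Ccnd1, Ccnd2 and Cdk6), and no source read here says whether counting used the strand. The copy Hmga1b was counted apart, with 2 and 2 UMIs in differentiating spermatogonia, and whether reads were shared between the copies was not tested.

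Among receptors, Igf1r and Tgfbr1 reached the highest levels in any one gate used for comparisons, in different cells. Igf1r, the receptor of insulin-like growth factors, stood at 64.8 (38.4 to 102) and 127 (94.1 to 167) CPM in undifferentiated and 54.1 and 56.6 CPM in differentiating spermatogonia. It was at 10.0 and 15.3 CPM in leptotene-zygotene spermatocytes, 5.40-fold (2.746 to 11.8) and 3.71-fold (1.79 to 8.63) lower, and at or under 2.72 CPM in every later germ gate. Stromal cells held 61.8 and 80.3 CPM and Leydig cells 55.4 and 40.4 CPM. The high gates of Igf1r were thus spermatogonia, stromal and Leydig cells. The insulin receptor Insr and the adaptor Irs2, which act beside it, were at or under 18.5 CPM in all gates used for comparisons.

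Tgfbr1, the type I receptor of TGF-β, stood at 54.1 and 83.1 CPM in leptotene-zygotene spermatocytes, 20.5 and 23.8 CPM in pachytene and 5.77 and 6.16 CPM in diplotene-dividing ones. Round spermatids held 44.9 (42.4 to 47.6) and 37.8 (35.5 to 40.1) CPM, 7.79-fold (5.98 to 10.3) and 6.14-fold (4.70 to 8.16) higher. Low-UMI barcodes held 23.6 CPM of Tgfbr1 over both marks, and leptotene-zygotene spermatocytes alone were 2-fold or more above them under both marks. The activin receptors differed from Tgfbr1. Among germ gates Acvr1b was highest in pachytene spermatocytes, at 13.3 and 12.0 CPM, and Acvr2a in leptotene-zygotene spermatocytes, at 29.1 and 27.1 CPM, and both were called lower in round spermatids, where Tgfbr1 was called higher.

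The GTPases Nras and Hras, which relay growth factor signals, were measured in every gate. Nras was highest in pachytene spermatocytes, at 158 and 145 CPM, and was called at no step. Hras stood at 137 and 117 CPM in undifferentiated and 137 and 145 CPM in differentiating spermatogonia and at 68.2 and 50.9 CPM in leptotene-zygotene spermatocytes, 2.01-fold (1.498 to 2.71) and 2.84-fold (1.89 to 4.40) lower. This call was lost with gate cuts raised to 1.5 times and when barcodes in several gates went to the gate of their largest score. The low-UMI barcodes held 83.6 and 85.5 CPM of Nras and 54.3 and 59.0 CPM of Hras. Of the kinases, Map3k1 was at 41.7 and 35.2 CPM in differentiating spermatogonia and 2.004 and 3.39 CPM in leptotene-zygotene spermatocytes, 20.8-fold (5.45 to 177) and 10.4-fold (2.62 to 90.0) lower. Map4k3 had its highest germ cell level in the same gate, at 31.9 and 28.9 CPM, and its call against undifferentiated spermatogonia rests on 4 UMIs there under each mark.

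The cyclins Ccnd1 and Ccnd2, which start the cell cycle with the kinases Cdk4 and Cdk6, were split between the spermatogonial gates. Ccnd1 stood at 57.6 (32.9 to 93.5) and 27.9 (13.9 to 49.9) CPM in undifferentiated and 198 (173 to 226) and 185 (156 to 217) CPM in differentiating spermatogonia, 3.44-fold (2.07 to 6.12) and 6.63-fold (3.60 to 13.6) higher. Ccnd2 went the other way, from 93.6 (61.1 to 137) and 216 (172 to 266) CPM to 30.2 and 49.1 CPM, 3.103-fold (1.79 to 5.33) and 4.39-fold (2.97 to 6.59) lower. The intervals of the gates do not overlap under either mark for either gene.

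Both cyclins were low at entry into meiosis. Ccnd1 was at 11.02 and 3.39 CPM in leptotene-zygotene spermatocytes, 17.9-fold (9.84 to 36.5) and 54.5-fold (14.8 to 454) lower than in differentiating spermatogonia. Ccnd2 had 0 UMIs there under both marks, at least 10.0-fold and 9.64-fold lower. Their partner Cdk6 stood at 62.1 and 36.5 CPM in differentiating spermatogonia and 5.01 and 15.3 CPM in leptotene-zygotene spermatocytes, and then at 23.8 and 20.4 CPM in diplotene-dividing ones. Cdk6 was thus lower but measured throughout, unlike Ccnd2. In elongating spermatids Ccnd1 was called higher again, at 5.72 (4.87 to 6.68) and 4.55 (3.84 to 5.35) CPM against 0.309 and 0.460 CPM in round ones, more than 2-fold above the 2.55 and 2.11 CPM of low-UMI barcodes.

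Cdc34, a ubiquitin-conjugating enzyme of the cell cycle, had more UMIs than any other member in every gate used for comparisons. It stood at 172 and 174 CPM in pachytene and 189.8 and 193 CPM in diplotene-dividing spermatocytes and at 326 (319 to 333) and 269.9 (264 to 276) CPM in round spermatids. Elongating spermatids held 1554 (1539 to 1569) and 1476 (1462 to 1489) CPM, 4.76-fold (4.65 to 4.88) and 5.47-fold (5.34 to 5.60) higher, with 43458 and 47391 UMIs. The call was kept with scaling by the median ratio, at a log2 ratio of 3.48. Elongating spermatids were thus the high gate of Cdc34, and the others lay at or below 544 CPM, where low-UMI barcodes held 511 and 482 CPM. The copy Cdc34b had 17 and 23 UMIs in elongating spermatids and whether reads were shared with it was not tested.

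Levels were also taken within the spermatid gates. Round spermatids were cut into terciles by the share of their UMIs on the elongating marker list. Cdc34 stood at 186, 251 and 597 CPM from the lowest to the highest tercile under mark 1 and at 190.1, 238 and 522 CPM under mark 2. Across terciles of elongating spermatids by UMIs it stood at 1147, 1379 and 1752 CPM under mark 1 and 1140, 1411 and 1701 CPM under mark 2. Cdc34 was thus higher in round terciles with a larger share of the elongating markers and in elongating terciles with more UMIs, and the elongating terciles give no stage. Nr6a1 in round spermatids stood at 130.1, 156 and 164 CPM and 113, 143 and 152 CPM, also higher in each, and Arid3a at 63.9, 63.7 and 48.6 CPM and 55.7, 65.2 and 51.3 CPM. The median UMIs of the round terciles were 29485, 25132 and 13974, and the elongating terciles were themselves cut by UMIs, so depth moved with both orders, and its part in these results was not tested. Prm1, Prm2, Tnp1 and Tnp2, from which free RNA was estimated, made up 0.709%, 1.065% and 3.32% of UMIs in the round terciles. Low-UMI barcodes held 5.5% of them and 494.5 CPM of Cdc34. The free RNA estimate thus rose with the order of the round terciles, and the part of free RNA or doublets was not tested.

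**Figure D4:**
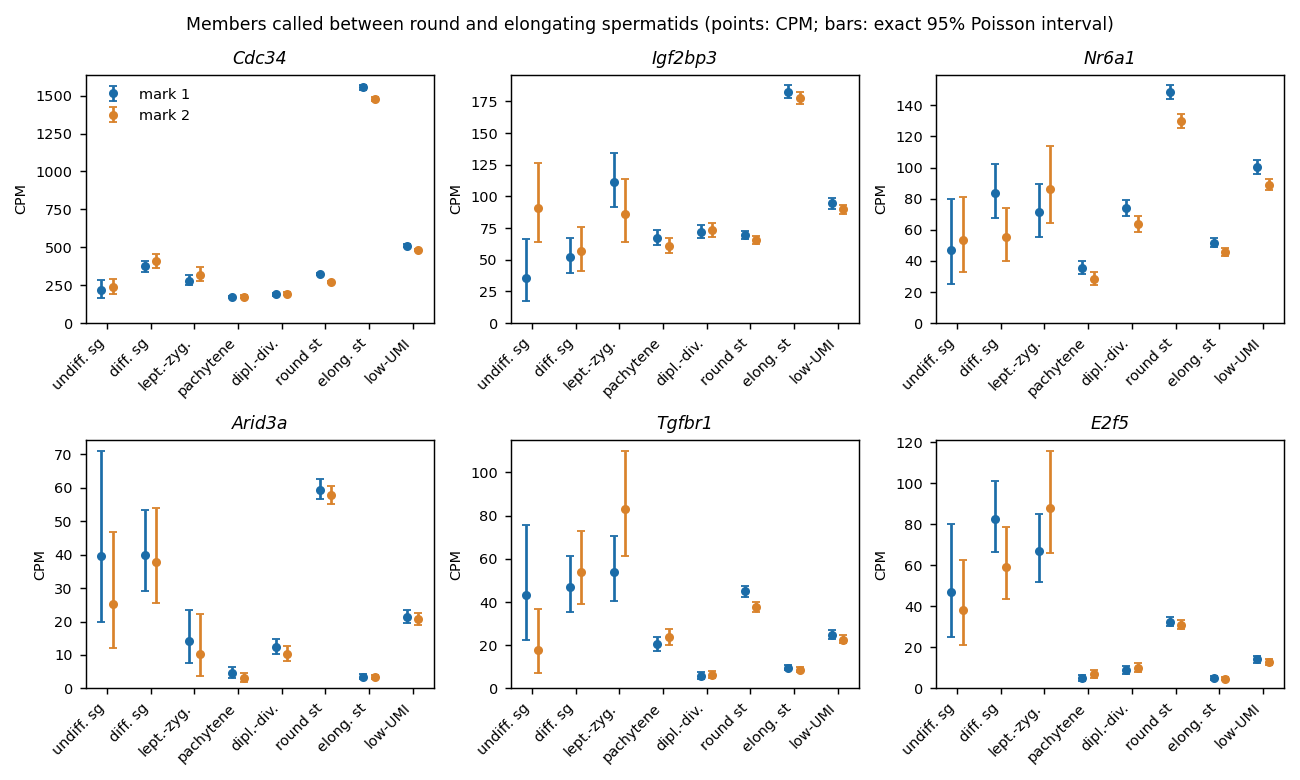
CPM of Cdc34, Igf2bp3, Nr6a1, Arid3a, Tgfbr1 and E2f5 in the 7 germ gates and in low-UMI barcodes, under mark 1 (blue) and mark 2 (orange), with exact 95% Poisson intervals. Cdc34 and Igf2bp3 are highest in elongating spermatids, and Nr6a1 and Arid3a in round ones; with scaling by the median ratio Nr6a1 and Tgfbr1 are no longer called at the last step.

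Nme6, a nucleoside diphosphate kinase, was highest in pachytene spermatocytes, at 143 and 147 CPM, against 43.5 and 60.4 CPM in differentiating spermatogonia and 84.1 and 87.6 CPM in low-UMI barcodes, and was called at no step. Dna2, a helicase and nuclease of DNA replication and repair, was low throughout, at 15.97 and 11.3 CPM in differentiating spermatogonia, 8.34 and 10.9 CPM in pachytene, 1.09 and 1.08 CPM in diplotene-dividing spermatocytes and 6.95 and 5.20 CPM in round spermatids. Its call from leptotene-zygotene to pachytene rests on 3 UMIs under each mark and was lost under 5 settings besides a 3-fold threshold.

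Held against the free RNA reference, the members passed most often in spermatogonia. Passing meant at least 2-fold above the low-UMI barcodes under both marks, with at least 10 UMIs under each mark in the gate. In differentiating spermatogonia 15 of 32 members passed, with 22.2% of all genes, and in undifferentiated ones 8, with 11.6%. The counts thus also depend on the UMIs of a gate. Lin28b missed the minimum in undifferentiated spermatogonia, at 25.2 and 20.3 CPM on 7 and 8 UMIs, against 2.13 CPM in low-UMI barcodes. The counts were 7 in leptotene-zygotene (16% of all genes), 5 in pachytene (21.6%), 1 in diplotene-dividing spermatocytes (3.62%), 2 in round (5.18%) and 2 in elongating spermatids (4.29%). The other 10 passed in no gate: Igf2bp2, Igf2bp3, Hmga2, Arid3b, Nr6a1, E2f2, Insr, Nras, Map4k3 and Nme6. Of these, E2f2 missed the UMI minimum in differentiating spermatogonia, at 11.5 and 11.3 CPM on 13 and 9 UMIs, against 0.304 CPM in low-UMI barcodes. Igf2bp2 missed it in undifferentiated spermatogonia, at 3.60 and 22.8 CPM on 1 and 9 UMIs, against 0.825 CPM.

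Few members passed this rule in somatic gates. These held 539 Sertoli, 85 Leydig, 88 macrophage, 96 T or NK, 75 stromal and 50 erythroid barcodes. Prm1, Prm2, Tnp1 and Tnp2 made up 6.6%, 4.9%, 4.3%, 5.5%, 3.9% and 4.7% of their UMIs, against 5.5% in low-UMI barcodes. By that upper estimate most of their RNA could be free. A level 2-fold above the reference is then hard to reach, so few passes do not show low somatic expression. Map3k1 passed in Sertoli cells (1 of 32 members, 7.61% of all genes), at 9.65 and 11.4 CPM on 15 and 16 UMIs against 1.20 and 0.729 CPM in low-UMI barcodes. Igf1r passed in Leydig cells (3.64% of all genes) and, with Ccnd2, in stromal cells (3.12%). Ccnd2 alone passed in T or NK cells (2.03%), at 185 (139.8 to 239) and 107 (69.4 to 158) CPM, beside 93.6 and 216 CPM in undifferentiated spermatogonia. Stromal cells held 94.5 and 80.3 CPM of Ccnd2, and Sertoli cells 1 and 0 UMIs. None of the members passed in macrophages (3.75%) or erythroid cells (0.059%). Ccnd2 and Igf1r were thus above the reference in both spermatogonia and somatic cells, and Trim71 and Lin28a were at or under 3.64 CPM in every somatic gate.

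**Figure D5:**
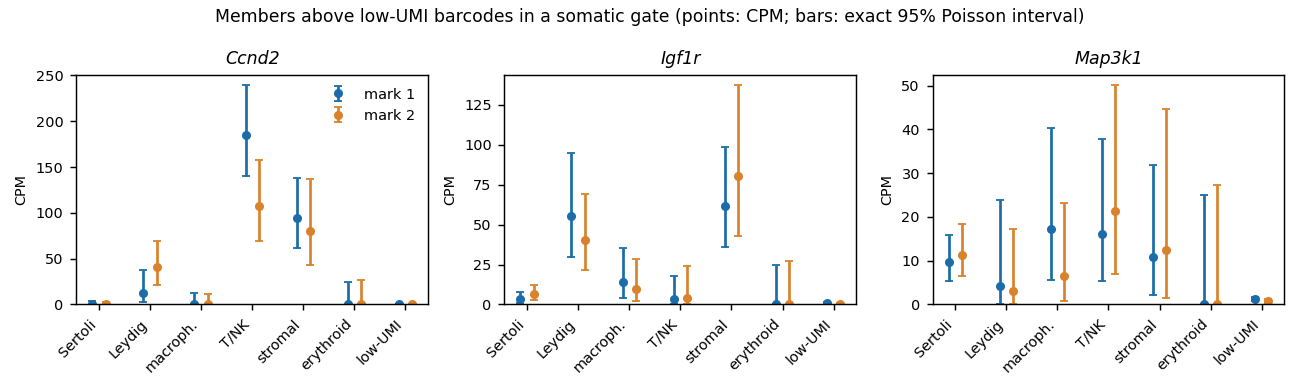
CPM of Ccnd2, Igf1r and Map3k1 in 6 somatic gates and in low-UMI barcodes, under mark 1 (blue) and mark 2 (orange), with exact 95% Poisson intervals. Ccnd2 is highest in T or NK cells (185 and 107 CPM) and Igf1r in stromal cells (61.8 and 80.3 CPM), while the intervals of Map3k1 overlap across gates.

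Shares of barcodes with a UMI gave the same order when every barcode was thinned to 3500 UMIs, a depth that all barcodes reached. Trim71 was then found in 57.4% of undifferentiated spermatogonia (42.2 to 71.7%, Clopper-Pearson), 15.4% of differentiating ones (9.90 to 22.4%) and 0 of 192 leptotene-zygotene barcodes. A floor of 3 counts allows up to 1.56% of those barcodes to hold a UMI at this depth, which does not limit the share that expresses the gene, and the Clopper-Pearson upper bound is 1.90%. Without thinning the shares were 83.0%, 41.3% and 0.521%, at median depths of 13121, 12340 and 7376 UMIs. In Sertoli cells, which should lack it, the unthinned share was 0.186% at a median of 4640 UMIs. Ccnd1 was found in 10.6%, 37.8% and 3.65% of these 3 germ gates after thinning (36.2%, 74.8% and 5.73% before), and in 0.787% of low-UMI barcodes at a median of 4187 UMIs. Cdc34 was found in 95.7% of elongating and 60.9% of round spermatids after thinning (99.7% and 98.7% before), beside 80.8% of low-UMI barcodes, so that its share in round spermatids lay below that reference. The shares of Trim71 and Ccnd1 thus had opposite orders in the spermatogonial gates, as did their CPM.

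The same barcodes often held several members. Of the 47 undifferentiated spermatogonia, 39 had a UMI of Trim71, 27 of Lin28a, 26 of Ccnd2 and 17 of Ccnd1, and 25 had both Trim71 and Lin28a. Of the 143 differentiating spermatogonia, 59 had Trim71, 107 had Ccnd1 and 24 had Ccnd2, and all 24 barcodes with Ccnd2 also had Trim71. Only 12 had both cyclins. These counts come from unthinned barcodes of differing depth. The overlap that the single counts alone would give was not computed, so they do not show a link between the genes. The 19 barcodes that passed both spermatogonial gates and entered neither held 202 and 191 CPM of Trim71 and 238 and 427 CPM of Ccnd2, at or above the undifferentiated gate.

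The calls were then set beside the seed matches. At the step into leptotene-zygotene, 7 of 21 measured members with the let-7 match were lower, and 4 of 8 with the miR-202-3p match (Trim71, Mycn, Ccnd1 and Ccnd2), Trim71 counting under both. Of Hras and Cdk6, which hold neither of these matches, both were lower, though Cdk6 holds TACCTCA. Outside the list the shares were near each other: 11.5% of 1129 other genes with the let-7 match and 11.9% of 656 with the miR-202-3p match were lower, against 13.1% of 7402 genes without TACCTC. From pachytene to diplotene-dividing spermatocytes, 28.1% of 1290 other genes with the let-7 match and 27.2% of 776 with the miR-202-3p match were lower. Of 8646 genes without TACCTC 24.3% were. At the last step these shares were 47.8%, 47.1% and 48.6%. With the 8-base let-7 match CTACCTCA the shares were 13.5% of 415 into leptotene-zygotene, 32% of 459 into diplotene-dividing and 48.7% at the last step. The other steps and the shares called higher are not given here. Genes with a match have longer 3′ UTRs, which was not adjusted for, so the shares describe the table only.

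Genes that make or use microRNAs were described beside the members from a list of 16, of which 14 were in the table. From differentiating spermatogonia to leptotene-zygotene spermatocytes 2 of 14 were lower (Drosha and Ago1) and 0 higher, beside 11.8% and 4.37% of all genes. From leptotene-zygotene to pachytene 3 were lower, where 17.1% of all genes were: Dicer1, which cuts precursors to mature microRNAs, from 85.2 and 88.2 CPM to 2.18 and 5.44 CPM, the silencing adaptor Tnrc6b from 92.2 and 84.8 CPM to 2.82 and 5.30 CPM, and Ago3. From pachytene to diplotene-dividing spermatocytes 9 of 14 were lower and 1 higher (Prkra), beside the 22.3% and 16.8% of all genes. Among the 9, Drosha, which cuts primary transcripts, went from 21.7 and 28.9 to 2.98 and 2.81 CPM, Ago4 from 52.2 and 58.9 to 6.57 and 6.91 CPM and Ago2 from 42.5 and 41.0 to 6.27 and 5.94 CPM. Dicer1 and Tnrc6b were thus low already in pachytene spermatocytes, where Ago2 and Ago4 were not. Of the later steps, round spermatids had 6 lower, where 21.2% of all genes were lower and 24.7% higher, and elongating spermatids 7, where 46.8% were lower and 8.38% higher, with 0 of the list higher at either.

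A second list held 28 further let-7 family targets, 27 of them in the table. At the step into leptotene-zygotene 3 of 23 measured were lower and 2 higher, beside 11.8% and 4.37% of all genes. E2f6, a repressor of the E2F family, went from 31.9 and 23.9 CPM to 2.004 and 0 CPM, Bach1, a repressor of the BTB family, was 2.43-fold and 14.1-fold lower, and Pbx3, a homeodomain factor, from 10.6 and 7.55 CPM to 167 and 168 CPM, 15.7-fold and 22.3-fold higher. At the next step 6 of 21 were lower and 0 higher, beside 17.1% and 8.54% of all genes, among them Pbx3, at 5.01 and 5.58 CPM, and Smarcad1, a chromatin remodeller, from 74.2 and 71.2 CPM to 2.44 and 3.87 CPM, and Galnt1, a glycosyltransferase, 20.4-fold and 16.4-fold lower. Pbx3 was thus highest in leptotene-zygotene spermatocytes among the germ gates.

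Between the marks the members were close in most gates. Of 201 measured pairs of member and gate, with ungated barcodes left out, 7 were at least 2-fold higher and 4 at least 2-fold lower under mark 2. Over the same gates 3.57% of all measured genes were called in either direction. The shares of all genes called in either direction were 7.54% in undifferentiated spermatogonia, 3.07% in differentiating ones, 3.23% in leptotene-zygotene, 2.96% in pachytene and 2.59% in diplotene-dividing spermatocytes, 2.09% in round and 1.79% in elongating spermatids. The members measured in these gates numbered 17, 27, 16, 22, 25, 24 and 24. In undifferentiated spermatogonia, with 18 and 29 barcodes, the share of members called was above that of all genes. Igf2bp3 (36.0 and 91.3 CPM), Ccnd2 (93.6 and 216 CPM) and Cdk6 (21.6 and 63.4 CPM) were higher there and Ccnd1 (57.6 and 27.9 CPM) lower under mark 2. In pachytene spermatocytes Cdk6 was at 19.8 and 8.31 CPM on 154 and 58 UMIs, a ratio of 0.420 (0.305 to 0.572), and Igf1r at 0.898 and 2.72 CPM on 7 and 19 UMIs. The others were Mycn in differentiating spermatogonia, Igf2bp1 and Ccnd1 (leptotene-zygotene and diplotene-dividing, all 3 higher), and Map4k3 and Irs2 (leptotene-zygotene and elongating, both lower). In somatic gates 0 of 15 members measured in Sertoli cells (2.93% of all genes), 0 of 7 in Leydig cells (6.58%), 0 of 8 in macrophages (6.26%), 0 of 7 in T or NK cells (6.9%), 0 of 7 in stromal cells (6.95%) and 0 of 2 in erythroid cells (6.12%) were called. In low-UMI barcodes Trim71 was higher and Igf1r lower under mark 2, among 29 measured (1.78% of all genes). Whether a difference between marks reflects genotype, mouse or library cannot be told apart.

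By the settings tried other than a 3-fold threshold, the calls that held under all of them were as follows. They were Lin28a, Lin28b, Trim71 and Ccnd2 at the first step, Trim71, Hmga1, Igf1r, Map3k1, Ccnd1 and Ccnd2 at the second, and Igf2bp1, Rbfox2, E2f5, Tgfbr1 and Acvr2a at the third. At the fourth they were Lin28b, Rbfox2, Hmga1, Plagl2, Tgfbr1, Acvr1b and Dna2, at the fifth Rbfox2, Hmga2, Arid3a, E2f5, Tgfbr1 and Acvr2a, and at the last Igf2bp3, Rbfox2, Arid3a, E2f5 and Cdc34. The call of Ccnd1 in differentiating over undifferentiated spermatogonia was lost with gate cuts raised to 1.5 times.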

How the data were processed

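Deposited values are whole-number UMI counts per gene and barcode, which the authors did not normalise, as far as the values show. Per the submitters' processing notes, GRCm38, Seurat 3.2.2 and Cell Ranger 1.3.1 were used; no source read here states the barcode filter. All 28245 barcode columns lack a sample label, and 73 barcode sequences occur under both marks. The members, lists and tests were chosen with earlier results of these data known. Gate cuts were set after the table had been seen, so gates are not independent of it: a barcode entered a gate by its marker UMIs per 10000, number of markers and marker UMIs. Of 141 markers 136 were in the table, 269 barcodes passed more than 1 gate and no doublet caller was run, so doublets remain. Barcodes up to 10% above a cut numbered 1 of 47 undifferentiated, 22 of 143 differentiating, 21 of 192 leptotene-zygotene, 84 of 390 pachytene, 124 of 526 diplotene-dividing, 452 of 1926 round and 679 of 3508 elongating.

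UMIs were summed per gate and mark and divided by the gate's total (327708213 UMIs in all barcodes). With 1 library per genotype and no map of marks to samples, no test was run. Intervals are exact Poisson for CPM, conditional binomial for ratios and Clopper-Pearson for shares, at 95%; a count of 0 was set at a floor of 3 UMIs per mark. Neighbouring steps share a gate, so their ratios are not independent. Values in full are for members with at least 50 CPM in a gate under each mark, others by their highest gate and range; some lower members were given in full for their paralogue or partner, chosen after values were seen. Of the other lists the 3 genes of largest ratio among those called were named. The call rule was run on simulated Poisson counts without spread between cells, with 200 well-counted genes changed 4-fold at each step. It recovered 200 of 200, which a 2-fold rule makes nearly certain, and called 12 to 37 unchanged genes. Recovery of smaller changes, or of genes with few UMIs such as many members, was not tested. Alternatives changed the fold, UMI minimum, scaling, gates and free RNA. Python 3.11.15, NumPy 2.4.6, SciPy 1.17.1, pandas 2.3.3 and Matplotlib 3.10.9 were used.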

Additional observations from a re-analysis of the deposited data

Results flagged for a closer look

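The endothelial gate held 10 barcodes, 2 under mark 1 and 8 under mark 2, and entered no comparison. Ccnd1, the cyclin D1 gene, stood there at 302.5 CPM (182 to 472, 19 UMIs) over both marks, above the 2.30 CPM of low-UMI barcodes and above its level in every other gate. Hras stood at 143 CPM (65.5 to 272, 9 UMIs), against 57.0 CPM in low-UMI barcodes. Both were singled out because the level in data outside the comparisons lay above the free RNA reference. With 10 barcodes these levels describe those barcodes only.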

How the results depend on the processing

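No paired analysis was possible because each genotype has 1 library and the barcode columns carry no sample. Leaving out a replicate was not possible for the same reason. Of 576 values that the 64 member calls took under 9 alternatives, 0 changed sign, 480 lay within 0.5 on the log2 scale and 496 were still called. With a fold of 1.5 the members called were 11 instead of 7 between the spermatogonial gates, 11 instead of 7 from leptotene-zygotene to pachytene, 19 instead of 11 into round spermatids and 35 instead of 11 between marks. With a fold of 3 they were 4, 7 and 4 at the first 3 steps and 6 into diplotene-dividing spermatocytes, instead of 7, 12, 7 and 12. Without a UMI minimum 11 were called into pachytene. With gate cuts raised to 1.5 times 9 instead of 15 were called into elongating spermatids. The higher thresholds, fewer barcodes and lower minimums of these settings set the counts by construction. The undifferentiated gate, with 47 barcodes, limits the first step most: 10 UMIs under mark 1 correspond to 36.0 CPM there, and to 0.386 CPM in round spermatids.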
